A study of Rattus norvegicus with 16 samples.

Results

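The 10 genes described here encode lymphoid and homing chemokines with their receptors, in dorsal root ganglia (DRG) of rats with bone cancer. The ligands were Cxcl13, Ccl19, Ccl21, Cxcl12 and Cxcl16, and the receptors were Cxcr5, Ccr7, Cxcr4, Ackr3 and Cxcr6. They were chosen by name for their shared function, and each symbol matched 1 entry among the 21021 genes listed for every sample.

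Chemokines are small secreted proteins that bind receptors with a chain spanning the membrane several times, and leukocytes move along their gradients. The ligand CXCL13 binds CXCR5 and draws B cells and follicular helper T cells into follicles, while CCL19 and CCL21 share the receptor CCR7 and draw naive T cells and mature dendritic cells into lymph nodes. The ligand CXCL12 binds CXCR4, which signals through G proteins, and ACKR3, which mainly takes the ligand up. CXCL16 exists both as a membrane protein and as a shed ligand of CXCR6, a receptor of activated T cells and natural killer (NK) cells. In sensory ganglia several of these pairs have been studied in persistent pain.

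Bone cancer was induced in adult female Sprague-Dawley rats by tumor cell implantation (TCI), in which Walker-256 rat mammary gland carcinoma cells were injected into the left tibia. The L3 to L5 DRG of the implanted side of 1 rat were pooled as 1 sample, and RNA was sequenced on day 1, day 7 and day 14 after TCI with 4 samples a group. Sham rats, also with 4 samples, received an injection into the same bone without living tumor cells, given as phosphate-buffered saline in the sample labels and as boiled tumor cells in the methods of the study. Their DRG were taken on day 14 only, so on days 1 and 7 the effect of the tumor and the time since surgery cannot be told apart. The groups carried no transgene or drug, and the model rests on a single tumor line grown as ascites before implantation.

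Levels are given as FPKM, in which the fragments of a gene are divided by its length and by the total of the library, so that genes can be compared per length. The tables hold no read totals, and the read numbers that the study gives were not used here, so no counting error is given. Groups were compared with limma on log2(FPKM + 1) over 14 samples, and a gene was called at a Benjamini-Hochberg adjusted p of at most 0.05 over all 14023 genes tested, those that reached 1 FPKM in 3 or more samples. On this scale the fold change of a gene below a few FPKM is smaller than the ratio of its levels. The 2 samples outside the fit, TCI day 1 replicate 2 and TCI day 7 replicate 3, were also left out of the statistics of the study, and the latter had a summed skeletal muscle marker level of 27270 FPKM against 244.2 to 301.2 FPKM in the other day 7 samples. Sham replicate 4 also stood apart, with 920.3 FPKM of muscle markers against 303.2 to 316.8 FPKM in the other sham samples. The tissue label held, with a summed sensory neuron marker level of 8522 to 10640 FPKM over the 14 samples.

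Of the 10 genes, 8 passed the filter on low values, and Cxcr5 and Ccr7 did not. Cxcl13, Ccl19, Ccl21 and Cxcr6 would not have passed it without samples of days 7 and 14, since at most 2 samples of sham and day 1 reached 1 FPKM (2 for Cxcl13, 1 for Ccl21 and 0 for Ccl19 and Cxcr6). The number of genes called among those that passed, and their median, is therefore a description and no support for a rise. On day 7, Cxcl13, Ccl19, Cxcl12, Ackr3, Cxcl16 and Cxcr6 were higher than in sham, 6 of the 8 tested, where 14.5% of all tested genes were higher and 3.45% lower. On day 14 the number was 5, without Ackr3, where 11.9% of all tested genes were higher and 3.21% lower. None of the 8 passed on day 1, and neither did any other gene (0% of those tested), although 734 of all tested genes (5.23%) and 0 of the 8 had an unadjusted p under 0.05. Between day 14 and day 7 again 0 of the 8 passed with limma, where 0.00713% of all tested genes were higher and 0.0927% lower on day 14. At an unadjusted p under 0.05 it was 3 of the 8, beside 9.96% of all tested genes.

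At stricter cut-offs, with the adjusted p at or below 0.001 and the log2 fold change 1 or more in either direction, limma called 0 of the 8 on day 7 and 0 on day 14, where 1.83% and 0.642% of all tested genes were higher; at an unadjusted p under 0.05 the numbers were 7 and 5, where 31.2% and 29.9% of all tested genes passed in either direction.

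The 8 genes had a median log2 fold change of 0.17 for day 1, 0.91 for day 7 and 0.55 for day 14, beside 0.001, 0.042 and 0.025 over all tested genes. With Cxcr5 and Ccr7 included, the median log2 difference of all 10 genes was 0.13, 0.81 and 0.45, beside 0, 0.018 and 0.011 over all 21021 listed genes. Every day 7 sample lay above every sham sample for 7 of the 10 genes, which held for 23.8% of all tested genes, and every day 14 sample did so for 6, which held for 13.8%. On day 1 the 3 genes without overlap were Ccl19, Cxcl12 and Ackr3, beside 6.17% of all tested genes. Quantile normalization turned the split of all calls on day 7 from 80.7% higher to 36.6% higher and on day 14 from 78.8% to 41.6%, and it moved the median of all genes on day 7 from 0.042 to -0.07. The direction of the 8 genes on these days was the same under that scaling.

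**Figure D1:**
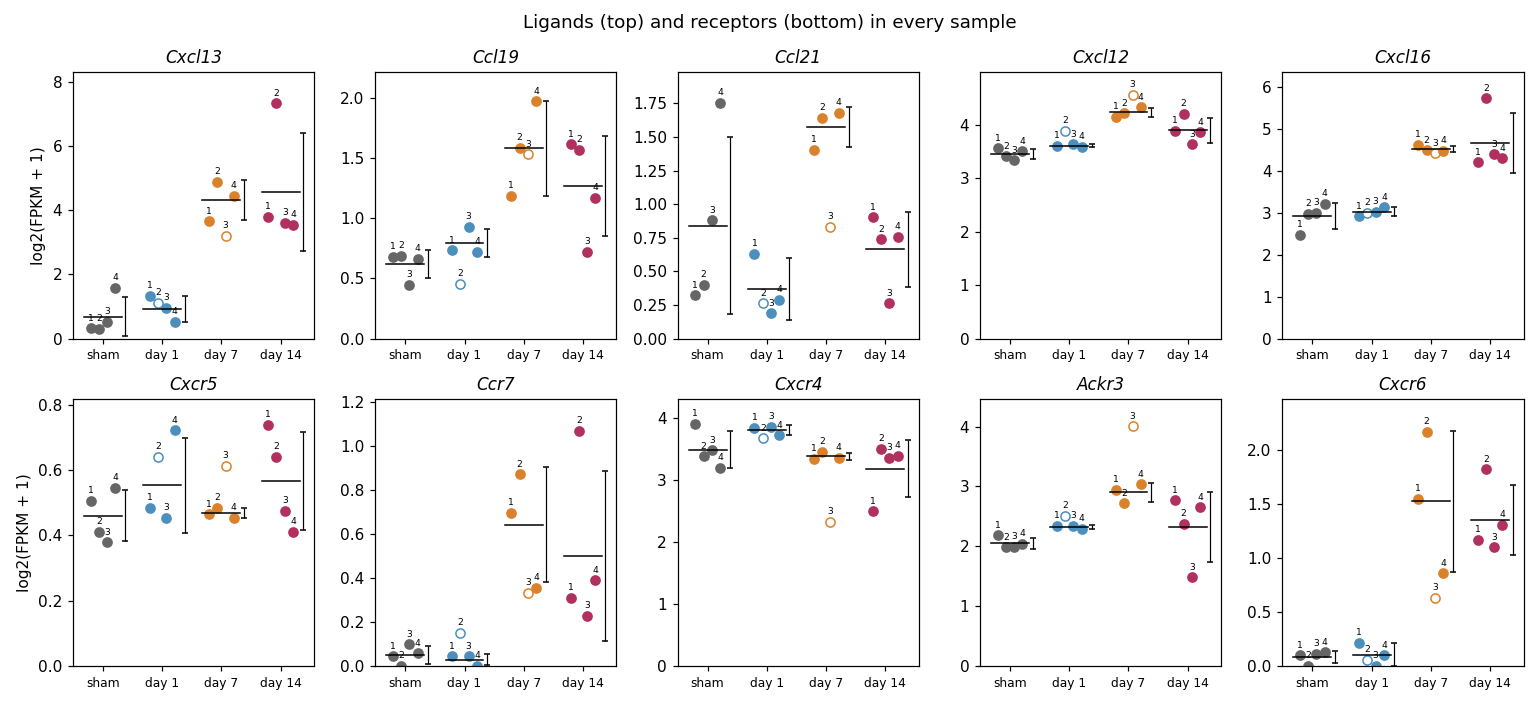
Level of the 5 ligands (top) and 5 receptors (bottom) as log2(FPKM + 1) in sham, TCI day 1, day 7 and day 14, with 1 point per sample and its replicate number; open points are the 2 samples outside the fit, horizontal lines are group means and bars the SD of the filled points. Cxcl13 of TCI day 14 replicate 2 (159.87 FPKM) stands far above the other day 14 samples, which lie at 10.65 to 12.81 FPKM.

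The stretch just before the transcription start is shown for the ligands Cxcl13, Ccl19, Cxcl12 and Cxcl16, because these 4 were higher on both late days. Each line holds the 100 bases upstream of the gene start on the gene's own strand, from RefSeq on build GRCr8, and the capitals mark a match to GAAA, any 2 bases and GAAA.
Cxcl13, chr14:13917921-13918020, minus strand: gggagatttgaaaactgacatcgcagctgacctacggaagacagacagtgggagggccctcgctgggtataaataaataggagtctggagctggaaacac
Ccl19, chr5:61761165-61761264, minus strand: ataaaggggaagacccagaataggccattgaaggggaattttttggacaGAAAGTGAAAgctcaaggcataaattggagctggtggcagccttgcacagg
Cxcl12, chr4:152060681-152060780, plus strand: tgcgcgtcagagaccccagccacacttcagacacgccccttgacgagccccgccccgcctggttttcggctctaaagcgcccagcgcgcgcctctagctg
Cxcl16, chr10:55669951-55670050, minus strand: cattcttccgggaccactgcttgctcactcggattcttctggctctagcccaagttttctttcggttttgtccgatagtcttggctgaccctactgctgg
Promoters of 250 upstream bases were found for 8 of the 10 genes and were searched on both strands for 4 motifs that do not contain each other. These were an interferon response motif (GAAA, any 2 bases, GAAA), a STAT motif (TTC, any 3 bases, GAA), an NF-kB motif (GGGA, any base, TT, any base, CC) and a core of the hypoxia response motif (ACGTG). The interferon response motif was found in Ccl19, as printed, and in 3.41% of the 33469 promoters in the table. The other 3 were in 0 of the 8, beside 7.67% of all promoters for the STAT motif, 0.974% for the NF-kB motif and 16.6% for ACGTG. A match is a description of these letters only.

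Cxcl13, the ligand of B cell follicles, showed the largest log2 fold change of the 8 genes tested on days 7 and 14, on the scale of log2(FPKM + 1). By the ratio of means on day 7 Cxcr6 was ahead of it, at 34.6 times a sham mean of 0.06 FPKM. Without sham replicate 4 this order reversed, at 41.5 times sham for Cxcr6 and 65.3 times for Cxcl13. The sham samples held 0.25, 0.24, 0.44 and 1.99 FPKM, and those of day 1 held 1.5, 0.94 and 0.43 FPKM, with 1.15 FPKM in the sample outside the fit. Day 7 levels were 11.55, 28.44 and 20.77 FPKM, with 8.15 FPKM in the sample outside the fit. On day 14 they were 12.81, 159.87, 11.12 and 10.65 FPKM. Every sample of days 7 and 14 was thus above every sample of sham and day 1. The mean rose from 0.73 ± 0.845 FPKM in sham (SD, n = 4) to 20.2 ± 8.46 FPKM on day 7 (n = 3), 27.7 times sham, with a log2 fold change of 3.64 (SE 0.75, 95% interval 2.02 to 5.26, limma adjusted p = 0.00501). The ratio depended on sham replicate 4, without which the sham mean was 0.31 FPKM and day 7 was 65.3 times sham, with a log2 fold change of 3.94 (adjusted p = 0.00671). On day 14 the mean was 48.6 ± 74.2 FPKM (n = 4), and the log2 fold change of 3.88 (SE 0.69, interval 2.38 to 5.38) passed at an adjusted p of 0.00323. These are bulk samples, in which more cells that make a transcript and more transcript per cell cannot be told apart.

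The share of a single sample in the day 14 level of Cxcl13 was large. TCI day 14 replicate 2 supplied 83.1% of the summed increase over the sham mean, and without it the day 14 mean was 11.5 FPKM, 15.8 times sham. With all samples the ratio to sham was 66.6 by means and 34.7 by medians, and without sham replicate 4 it was 156.8 by means. The rise itself did not rest on that sample. Without it the log2 fold change was 2.96 and the limma adjusted p was 0.000128. Against day 7 the log2 difference was 0.24 (adjusted p = 0.941) with the sample and -0.68 (adjusted p = 0.454) without it, so neither a further rise nor a fall from day 7 was detected.

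Cxcr5, the receptor for CXCL13, stayed below 1 FPKM in every sample. Its levels were 0.42, 0.33, 0.3 and 0.46 FPKM in sham and 0.38, 0.4 and 0.37 FPKM on day 7, with 0.53 FPKM outside the fit. The day 14 samples held 0.67, 0.56, 0.39 and 0.33 FPKM, a range that overlapped that of sham. In two-sided exact permutation tests of the mean log2(FPKM + 1), day 1 had a p of 0.371, day 7 of 0.886 and day 14 of 0.286 (adjusted p 0.549, 0.886 and 0.549 over the 6 comparisons of the 2 genes under the filter). TCI day 14 replicate 2, so high in Cxcl13, was not the highest sample of its group for Cxcr5.

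Ccl19, a ligand of CCR7, was about as low as Cxcl13 in sham and rose less. The sham samples held 0.6, 0.61, 0.36 and 0.58 FPKM, and those of day 7 held 1.27, 2 and 2.92 FPKM, with 1.89 FPKM outside the fit. On day 14 they held 2.06, 1.96, 0.65 and 1.25 FPKM. All late samples were above all sham samples, but replicate 3 of day 14 cleared the highest sham sample by little. The mean rose from 0.537 ± 0.119 FPKM (SD, n = 4) to 2.06 ± 0.827 FPKM on day 7 (n = 3), a log2 fold change of 0.96 (SE 0.21, limma adjusted p = 0.00689). On day 14 the mean of 1.48 ± 0.66 FPKM (n = 4) gave a log2 fold change of 0.65 (SE 0.19, adjusted p = 0.0397), a call close to the threshold. It was lost without any 1 of 11 samples, which were the 4 sham samples, the 3 of day 1, replicate 2 of day 7 and replicates 1, 2 and 4 of day 14, at limma adjusted p-values of 0.0517 to 0.107. Replicates 1 and 2 supplied 40.4% and 37.7% of the summed day 14 increase and replicate 3 supplied 2.98%.

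Ccl21, the other CCR7 ligand, made in lymph nodes by stromal cells and by high endothelial and lymphatic vessels, did not pass on any day. Sham levels were spread, at 0.25, 0.32, 0.84 and 2.38 FPKM, with the highest value in replicate 4, the sham sample that also carried the most muscle transcripts, whose part in the level was not tested. On day 7 the samples held 1.65, 2.12 and 2.2 FPKM, with 0.78 FPKM outside the fit, and on day 14 they held 0.87, 0.67, 0.2 and 0.69 FPKM. The day 7 log2 difference from sham was 0.74 (interval 0.12 to 1.35, limma adjusted p = 0.0944), and without sham replicate 4 it was 1.04 (adjusted p = 0.00416). On day 14 the difference was -0.17 (adjusted p = 0.702), and 0.13 without sham replicate 4. Each day 14 sample lay below each day 7 sample in the fit, as did 4.24% of all tested genes, and the log2 difference of -0.91 (SE 0.28) had an unadjusted p of 0.00699 and an adjusted p of 0.289.

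Ccr7, the receptor of these ligands, did not exceed 0.11 FPKM in sham and on day 1. The sham samples held 0.03, 0, 0.07 and 0.04 FPKM and those of day 1 held 0.03, 0.03 and 0 FPKM, with 0.11 FPKM outside the fit. Day 7 levels were 0.62, 0.83 and 0.28 FPKM, with 0.26 FPKM outside the fit, and on day 14 they were 0.24, 1.1, 0.17 and 0.31 FPKM. No late sample overlapped the sham range. The difference of the mean log2(FPKM + 1) from sham was 0.59 on day 7 and 0.45 on day 14, each with a two-sided exact permutation p of 0.0286, the smallest that groups of this size allow, and an adjusted p of 0.0857 over 6 comparisons. Without the filter on low values limma gave Ccr7 an adjusted p of 0.0391 on day 7 and 0.0957 on day 14. TCI day 14 replicate 2 supplied 63.4% of the summed day 14 increase, and the mean of the other 3 samples was 0.24 FPKM.

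Cxcl12, the ligand that retains leukocytes and stem cells in tissues such as bone marrow, was already among the most abundant of the 10 genes in sham. Sham levels were 10.84, 9.67, 9.14 and 10.36 FPKM, and day 1 levels were 11.2, 11.45 and 11.06 FPKM, with 13.79 FPKM outside the fit. On day 7 the samples held 16.82, 17.62 and 19.17 FPKM, with 22.68 FPKM outside the fit, and on day 14 they held 13.82, 17.59, 11.44 and 13.57 FPKM. The TCI samples of each day lay above all sham samples, with the widest gap on day 7. The mean rose from 10 ± 0.749 FPKM (SD, n = 4) to 17.9 ± 1.19 FPKM on day 7 (n = 3) and was 14.1 ± 2.56 FPKM on day 14 (n = 4). The log2 fold change was 0.78 (SE 0.10, limma adjusted p = 0.000346) on day 7 and 0.44 (SE 0.097, adjusted p = 0.00897) on day 14. On day 1 it was 0.16 (adjusted p = 0.974).

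The day 14 call of Cxcl12 held without TCI day 14 replicate 2, at a log2 fold change of 0.34 (limma adjusted p = 0.0108), although this sample supplied 46.2% of the summed increase. The comparison of day 14 with day 7 turned on it. With all 4 day 14 samples the log2 difference was -0.33 (adjusted p = 0.29), and without replicate 2 Cxcl12 was lower on day 14 than on day 7 by a log2 difference of -0.44 (adjusted p = 0.0182). The change was not particular to Cxcl12. Over all tested genes the number lower on day 14 went from 13 of 14023 with replicate 2 to 178 of 13945 without it.

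Cxcr4, the signaling receptor of CXCL12, had the highest sham mean of the 10 genes and did not pass on any day. Its levels were 13.96, 9.4, 10.11 and 8.16 FPKM in sham and 13.3, 13.45 and 12.15 FPKM on day 1, with 11.7 FPKM outside the fit. On day 7 they were 9.09, 9.9 and 9.2 FPKM, with 4.01 FPKM outside the fit, and on day 14 they were 4.62, 10.3, 9.21 and 9.45 FPKM. The ranges of all groups overlapped sham. The log2 difference from sham was 0.32 on day 1 (interval -0.14 to 0.77), -0.11 on day 7 (interval -0.56 to 0.34) and -0.31 on day 14 (interval -0.72 to 0.11), with limma adjusted p-values of 0.974, 0.768 and 0.315. These intervals allow changes in either direction. The low sample of day 14 was replicate 1, not the one that was high in Cxcl13.

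Ackr3, the scavenging receptor of CXCL12, moved on day 7. Sham levels were close together at 3.54, 2.95, 2.98 and 3.1 FPKM, and day 1 levels were 4.07, 4.05 and 3.88 FPKM, with 4.69 FPKM outside the fit. On day 7 the samples held 6.68, 5.59 and 7.21 FPKM, and the sample outside the fit, which carried the muscle transcripts, held 15.04 FPKM. On day 14 they held 5.81, 4.18, 1.79 and 5.29 FPKM, with replicate 3 below every sham sample and the other 3 above. The mean rose from 3.14 ± 0.273 FPKM (SD, n = 4) to 6.49 ± 0.826 FPKM on day 7 (n = 3), a log2 fold change of 0.85 (SE 0.23, limma adjusted p = 0.0201), or 1.13 (adjusted p = 0.00804) over all 16 samples. Leaving out day 7 replicate 1 or replicate 4 ended the call, at adjusted p-values of 0.065 and 0.0723. On day 14 the log2 difference was 0.27 (adjusted p = 0.422), and without replicate 3 it was 0.55 (adjusted p = 0.00307).

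Cxcl16, which also serves macrophages as a scavenger receptor for oxidized lipoprotein, rose to the highest mean of the 10 genes on day 7. The sham samples held 4.56, 6.88, 6.99 and 8.27 FPKM, and those of day 1 held 6.53, 7.12 and 7.73 FPKM, with 6.98 FPKM outside the fit. Day 7 levels were tightly grouped at 23.45, 21.37 and 21.29 FPKM, with 20.36 FPKM outside the fit, and on day 14 they were 17.45, 51.88, 20.05 and 18.62 FPKM. Late and sham samples did not overlap. The mean rose from 6.68 ± 1.54 FPKM (SD, n = 4) to 22.0 ± 1.22 FPKM on day 7 (n = 3) and 27.0 ± 16.6 FPKM on day 14 (n = 4). The log2 fold change was 1.61 (SE 0.29, limma adjusted p = 0.00234) on day 7 and 1.74 (SE 0.27, adjusted p = 0.00155) on day 14. TCI day 14 replicate 2 supplied 55.6% of the summed increase. Without it the mean was 18.7 FPKM, 2.8 times sham, and the log2 fold change of 1.38 still passed (adjusted p = 4.001e-05).

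Cxcr6, the receptor for CXCL16, went from near 0 to 1 or a few FPKM. The sham samples held 0.07, 0, 0.08 and 0.09 FPKM, and those of day 1 held 0.16, 0 and 0.07 FPKM, with 0.04 FPKM outside the fit. On day 7 the samples held 1.92, 3.49 and 0.81 FPKM, with 0.55 FPKM outside the fit, and on day 14 they held 1.25, 2.53, 1.14 and 1.47 FPKM. Each late sample was above each early one. The mean rose from 0.06 ± 0.0408 FPKM (SD, n = 4) to 2.07 ± 1.35 FPKM on day 7 (n = 3), with a log2 fold change of 1.44 (SE 0.24, limma adjusted p = 0.00145), and to 1.60 ± 0.637 FPKM on day 14 (n = 4), with a log2 fold change of 1.26 (SE 0.23, adjusted p = 0.00317). With a pseudocount of 0.1 in place of 1 the same changes came to 3.59 and 3.38, and both passed. TCI day 14 replicate 2 supplied 40.2% of the summed day 14 increase, and the call held without it at a log2 fold change of 1.11 (adjusted p = 0.00698).

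**Figure D2:**
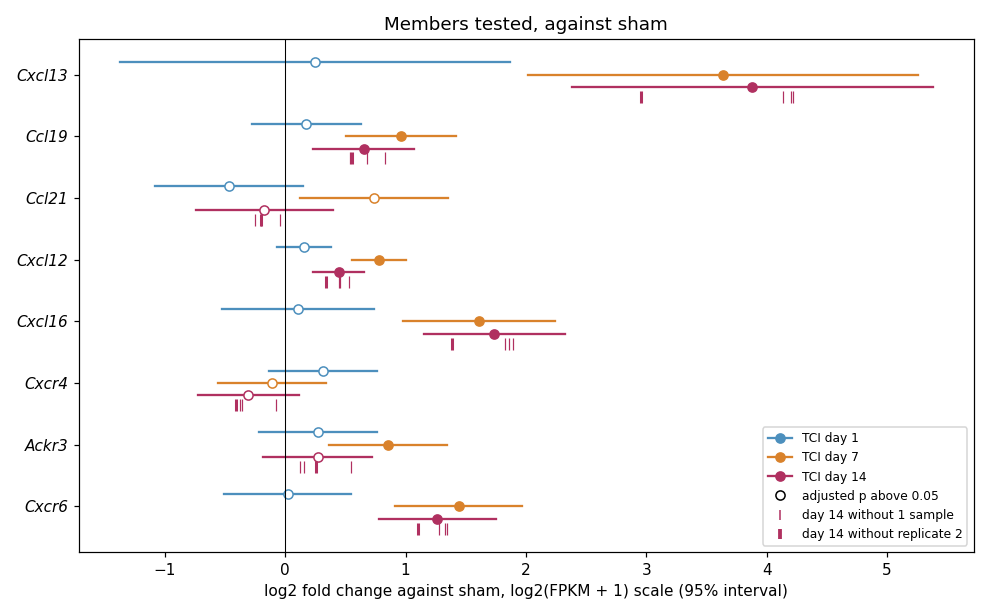
Log2 fold change against sham on the log2(FPKM + 1) scale for the 8 genes tested, on TCI day 1, day 7 and day 14; lines are 95% intervals, filled points have an adjusted p of at most 0.05, and ticks below each day 14 point give the value with 1 day 14 sample left out, the thick tick standing for replicate 2. Leaving out replicate 2 moves Cxcl13 from 3.88 to 2.96 and Cxcl16 from 1.74 to 1.38, both still far from 0.

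The order of the 10 genes by mean FPKM differed between groups. In sham Cxcr4 (10.4 FPKM) and Cxcl12 (10 FPKM) led with overlapping ranges, followed by Cxcl16 (6.68 FPKM), whose range reached that of Cxcr4 but not that of Cxcl12, and by Ackr3 (3.14 FPKM), which overlapped neither neighbour, and the remaining 6 had means below 1 FPKM. On day 7 Cxcl16 (22.0 FPKM), Cxcl13 (20.2 FPKM) and Cxcl12 (17.9 FPKM) led, and Cxcl13 overlapped both others. On day 14 Cxcl13, Cxcl16 and Cxcl12 followed each other, again with overlapping ranges, and Ccr7 and Cxcr5 were the lowest. Cxcl16 thus exceeded its receptor Cxcr6 throughout, while the ranges of Cxcl13 and Cxcr5 overlapped in sham and on day 1. The receptor Cxcr4 had a higher mean than its ligand Cxcl12 in sham and on day 1 (12.97 against 11.24 FPKM). Its mean was the lower of the pair on days 7 and 14.

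The 4 day 14 samples held different places in the 10 genes. Replicate 2 was the highest sample for 6 genes (Cxcl13, Ccr7, Cxcl12, Cxcr4, Cxcl16 and Cxcr6) and the lowest for none. Replicate 1 was the highest for the other 4 (Cxcr5, Ccl19, Ccl21 and Ackr3) and the lowest for Cxcr4 and Cxcl16. Replicate 3 was the lowest for 6 (Ccl19, Ccl21, Ccr7, Cxcl12, Ackr3 and Cxcr6) and the highest for none. With replicate 2 left out, 4 of the 8 tested genes passed on day 14, Ccl19 being the one lost. In that fit 1303 of 13945 genes tested were higher than in sham. For Cxcl13, Ccr7 and Cxcl16 a single sample therefore made up more than an even share by a wide margin, and for Ccl19 the increase was spread over replicates 1 and 2.

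**Figure D3:**
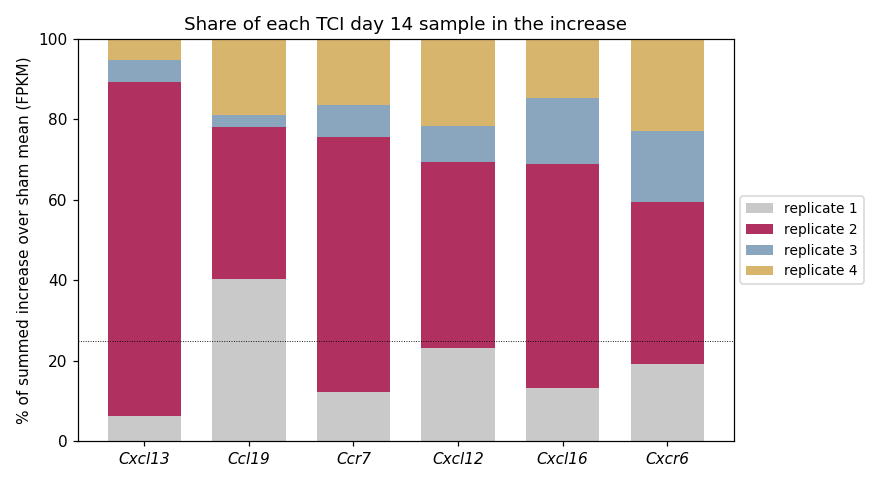
Percent of the summed increase over the sham mean (FPKM) that each of the 4 TCI day 14 samples supplied, for the 6 genes whose day 14 samples all lie above sham; the dotted line marks an even share of the lowest segment. Replicate 2 takes 83.1% for Cxcl13, 63.4% for Ccr7, 55.6% for Cxcl16, 46.2% for Cxcl12 and 40.2% for Cxcr6.

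Summed markers of macrophages, T cells and NK cells were higher than sham on days 7 and 14, as were some of the 10 genes. Cxcr4 and Cxcr5 were not among those. The summed level of the macrophage and monocyte markers was 72.8 to 136.5 FPKM in sham, 967.2 to 1293 FPKM on day 7 and 544.4 to 1877 FPKM on day 14, and replicate 2 of day 14 was the sample at 1877 FPKM while the other 3 reached at most 694.8 FPKM. The T cell markers summed to 6.48 to 9.79 FPKM in sham, 46.1 to 109.0 FPKM on day 7 and 38.8 to 112.8 FPKM on day 14, with replicate 2 again at the top and the other 3 at 48.65 FPKM or less. Most of the sham sum was Cd4, with means of 5.92 FPKM in sham, 23.2 FPKM on day 7 and 25.4 FPKM on day 14. Cd3e had means of 0.0525, 7.67 and 5.6 FPKM in the same groups. All 11 T cell markers tested rose on both days, and 14 of 14 macrophage markers rose on day 7 and 12 on day 14. Over all tested genes 14.5% were higher on day 7 and 11.9% on day 14. Several T cell markers, such as Cd3e (at most 0.12 FPKM in sham and 0.04 FPKM on day 1), passed the filter only through the late days. NK cell markers summed to 0.77 to 1.49 FPKM in sham, 20.5 to 43.4 FPKM on day 7 and 9.15 to 54.2 FPKM on day 14, and 5 of 5 tested rose on day 7 and 4 on day 14. The NK cell markers tested also passed the filter only through the late days. Such counts of markers are therefore a description and no support for a rise. Neutrophil markers had another course, with sums of 4.3 to 5.29 FPKM in sham, 7.89 to 28.8 FPKM on day 7 and 3.85 to 5.21 FPKM on day 14, where replicate 2 (4.57 FPKM) lay between the others. Of 2 neutrophil markers tested, S100a9 rose on day 7 and none on day 14. The part of cell numbers in the levels of Cxcl13, Cxcl16, Cxcr6 and Ccr7 was not tested.

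Defining markers of B cells, which CXCL13 attracts, were sparse, and those of the vessels that make CCR7 ligands in lymph nodes were mixed. The B cell and plasma cell markers summed to 3.88 to 4.98 FPKM in sham, 4.9 to 5.68 FPKM on day 7 and 4.33 to 8.42 FPKM on day 14. The defining B cell genes Ms4a1, Cd79b and Pax5 were at or near 0, with highest values of 0.16, 0.22 and 0.13 FPKM in any sample. Of the dendritic cell markers 5 were tested, and 1 rose and 1 fell on day 7 and 2 rose on day 14. The shares of all tested genes, for this list and the next, were 14.5% higher and 3.45% lower on day 7. On day 14 they were 11.9% higher and 3.21% lower. The lymphatic vessel list summed to 87.6 to 100.8 FPKM in sham, 80.7 to 87.0 FPKM on day 7 and 44.0 to 79.5 FPKM on day 14, most of it from Pdpn and Reln, while the defining genes Prox1 and Mmrn1 did not exceed 0.14 and 0.17 FPKM. Of 3 lymphatic vessel markers tested, Lyve1, which macrophages can share, rose on day 7 and Pdpn fell on day 14. The markers of high endothelial venules summed to 41.2 to 43.7 FPKM in sham, 35.97 to 41.3 FPKM on day 7 and 41.7 to 48.5 FPKM on day 14, most of it from Ackr1 (39.1 FPKM in sham), and Glycam1 was listed at 0 in every sample. Of 3 of them tested, Fut7, a fucosyltransferase, rose on day 7 (log2 fold change 0.33, limma adjusted p = 0.0133), and none passed on day 14. Fibroblast markers summed to 420.3 to 594.2 FPKM in sham, 976.0 to 1222 FPKM on day 7 and 341.3 to 969.7 FPKM on day 14. The lowest day 14 sample was replicate 3, which was also the lowest for Ccl19, Ccl21, Ccr7, Cxcl12, Ackr3 and Cxcr6. Its T cell, NK cell, dendritic cell, endothelial and lymphatic vessel sums were the lowest of day 14 as well. For sensory neuron markers it was the highest, at 10640 FPKM. The part of fibroblasts in the levels of these genes was not tested.

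**Figure D4:**
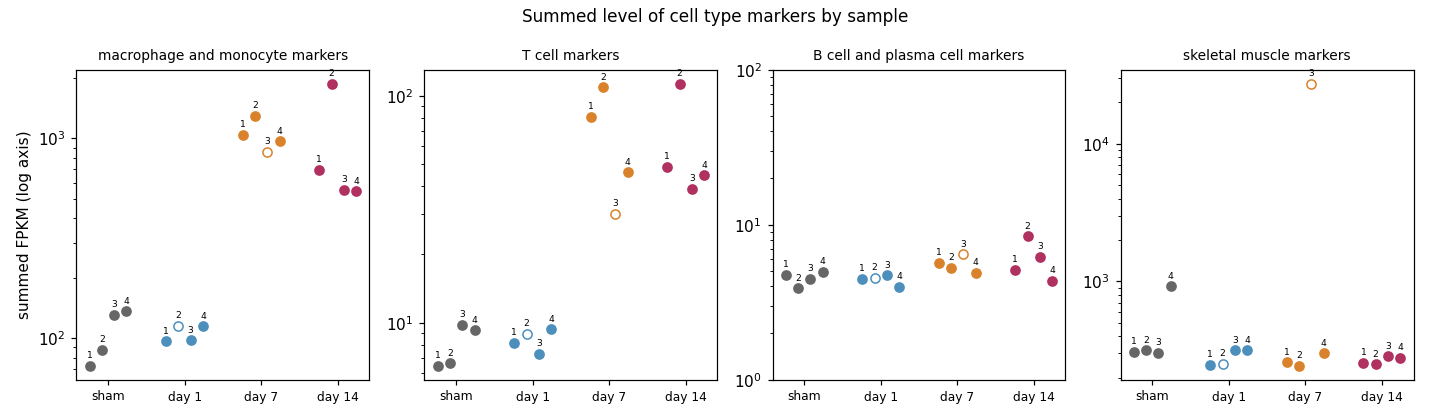
Summed FPKM (log axis) of the markers of macrophages and monocytes, T cells, B and plasma cells, and skeletal muscle in each sample, by group; numbers are replicates and open points are the 2 samples outside the fit. Replicate 2 of TCI day 14 holds 1877 FPKM of macrophage and 112.8 FPKM of T cell markers, and day 7 replicate 3 holds 27270 FPKM of muscle markers.

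Other genes of the chemokine system were read from lists of the pathway. Of 31 other chemokine ligands 18 were tested, of which 10 rose on day 7 and 8 on day 14, with none lower. The largest log2 fold changes were those of Ccl5, which draws T cells and monocytes (4.90 on day 7 and 4.45 on day 14), and of the CXCR3 ligands Cxcl9 (3.44 and 3.99), Cxcl10 (3.38 and 2.83) and Cxcl11 (3.22 and 3.08). Of 16 other chemokine receptors found in the data 6 were tested, of which 5 rose on day 7 and 3 on day 14, among them Cxcr3 (2.19 and 1.63). Over all tested genes 14.5% were higher on day 7 and 11.9% on day 14. Cxcr3, at most 0.08 FPKM in sham and 0.11 FPKM on day 1, passed the filter only through the late days. Both lists hold ligands and receptors of effector T cells and monocytes, and their medians on day 7 were 1.59 and 1.17, beside 0.91 for the 8 genes of interest. These counts and medians cover only genes that passed the filter and are a description.

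Among the genes that clear or cut these chemokines, 2 of 5 tested rose on day 7 and 1 on day 14. The share higher among all tested genes was 14.5% and 11.9%. Dpp4, at most 0.76 FPKM in sham and 1.29 FPKM on day 1, would not have passed the filter without samples of the late days. These counts are therefore a description and no support for a rise. Dpp4, a peptidase that shortens CXCL12 at its amino end, rose by a log2 fold change of 1.31 on day 7 and 0.67 on day 14, and Mmp2, a matrix metalloproteinase, rose by 1.09 on day 7. Adam10 and Adam17, the proteases that shed CXCL16, had log2 differences of -0.001 and 0.004 on day 7 (limma adjusted p = 0.995 and 0.99). The scavenging receptor Ackr1 of red cells and venules had a difference of -0.17 (adjusted p = 0.175). The sheddases thus did not pass on day 7, when the CXCL16 transcript was over 3 times its sham level.

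Downstream of the receptors, 8 of 18 signal genes rose on day 7 and 7 on day 14, with none lower. The largest change was that of Rac2, a small GTPase of blood cells (3.17 and 2.67), followed on day 7 by the phosphoinositide kinase subunit Pik3cg (0.86) and by Dock2, which activates Rac in lymphocytes (0.85, and 0.68 on day 14). The arrestin Arrb2 rose by 0.40 and 0.35. Values were smaller for Gnai2 (0.24 on day 7) and Grk6 (0.24 on day 7 and 0.23 on day 14), which most cell types express. Beside the counts of signal genes, 14.5% of all tested genes were higher on day 7 and 11.9% on day 14.

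Genes that organize lymphoid tissue were in part higher. Of 16 tested, 9 rose on day 7 and 7 on day 14, among them the adhesion molecules Icam1 (1.66 and 1.44) and Vcam1 (1.11 and 1.25), the interleukin 21 receptor Il21r (1.56 and 1.35) and the costimulatory receptor Cd40 (0.97 and 0.88). On day 7 Icos, a costimulator of follicular helper T cells, also rose (1.20). The share higher among all tested genes was 14.5% on day 7 and 11.9% on day 14. Cd40, at most 0.81 FPKM in sham and 0.51 FPKM on day 1, passed the filter only through the late days. The counts of this list are therefore a description and no support for a rise. The lymphotoxin genes that drive stromal Cxcl13 in lymphoid organs gave no call. Ltb had a log2 difference of 0.42 on day 7 and 0.45 on day 14 (limma adjusted p = 0.56 and 0.483), its receptor Ltbr had 0.25 and 0.29 (adjusted p = 0.264 and 0.163), and Lta did not exceed 0.18 FPKM. The T cell survival factor Il7 had 0.063 and 0.095 (adjusted p = 0.725 and 0.538).

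The genes most like each of the 8 tested genes over the 14 samples were read off as a description by Pearson's r of log2(FPKM + 1), among 9537 genes with a mean of at least 5 FPKM (9536 where the gene itself was one of them). All points share the differences between groups, so r of the deviations from the group means is given as well. For Cxcl13 they were Rnf114, a ubiquitin ligase (r = 0.986, 0.935 within groups), Tapbpl, a tapasin relative (0.983 and 0.918), and Bst2, or tetherin (0.983 and 0.932). For Cxcl16 they were the proteasome activator Psme1 (0.985 and 0.909), the GTPase Ifi47 (0.982 and 0.907) and the peptide transporter Tap1 (0.981 and 0.878). For Cxcr6 they were the leukocyte genes Cd37 (0.98 and 0.89), Lsp1 (0.973 and 0.839) and Gpsm3 (0.971 and 0.838).

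The remaining genes tested had other neighbours. Cxcl12 was most like the complement factor Cfb (0.969 and 0.836), Clic1 (0.965 and 0.77) and Tpm4 (0.962 and 0.854), and Ccl19 was most like Cxcl12 itself (0.926 and 0.769), Pros1 (0.912 and 0.706) and Tor1aip1 (0.9 and 0.751). Ackr3 came closest to Uap1l1 (0.95 and 0.926), Mbtps1, the site-1 protease (0.949 and 0.936), and Mettl7a (0.937 and 0.912). Ccl21 followed the chaperones Pdia6 (0.93 and 0.858) and Hyou1 (0.836 and 0.739) and the gene Mob3a (0.852 and 0.691). For Cxcr4 the highest values were lower, with the Mediator subunit Med8 at 0.775 (0.682 within groups) and the uncharacterized LOC100363502 and LOC100911034 at 0.766 and 0.763.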

How the data were processed

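After a quality filter on the reads, the authors aligned them with HISAT and Bowtie2, quantified genes with RSEM and deposited a table of FPKM for each sample, rounded to 2 decimals. The submitters' processing notes also name CASAVA 1.4. The genome build and annotation are not given in the sources used here. Groups and replicate numbers came from the sample titles, and the samples of a group came from separate rats.

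The deposited FPKM were transformed to log2(FPKM + 1), and all 4 groups of the 14 samples entered 1 fit of limma 3.58.1 (lmFit, contrasts.fit, eBayes with trend) in R 4.3.3, with no covariate. A count test was planned for the case that the files held counts and was not needed. The stricter cut-offs, an adjusted p of at most 0.001 and a log2 fold change of at least 1, are those of the study, which compared groups by another method not run here. Genes under the filter were compared by exact permutation tests. On simulated data for day 7 against sham over 13848 genes, 93 of 100 genes changed by a log2 fold of 1 and 100 of 100 changed by 2 were recovered, with 6 false calls. At most 2.78% of the values above 0 were identical between any 2 samples.

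The 10 genes, the gene lists, the 14 samples and the alternatives were chosen with earlier results of these data known. All 10 genes are named. Of each pathway list, up to 6 genes with the largest log2 fold change among those that passed are named, a few others were named after their values were seen (Adam10, Adam17, Ackr1, Arrb2, Gnai2, Grk6, Ltb, Ltbr, Lta, Il7, Icos), and cell type genes are examples; a few genes of these lists are not reported here. The 3 genes most like each tested gene were taken by Pearson's r. Alternatives were all 16 samples, 2 groups at a time, limma without the trend, quantile normalization, TPM, size factors, a pseudocount of 0.1, no filter or one on the mean (at least 5 FPKM), the stricter cut-offs, a replicate block and each sample left out in turn. Same-numbered samples come from different rats, so the numbers pair nothing by design. Gene starts and promoters came from RefSeq tables of GRCr8, in which all 10 gene IDs matched; the protein sequences were not used here. Python 3.11.15 and matplotlib 3.10.9 drew the figures.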

Additional observations from a re-analysis of the deposited data

Results flagged for a closer look

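Each of the 10 genes was checked in sham and on TCI day 14, the groups with 4 samples in the fit, for a highest or lowest sample whose gap to its neighbour took up more of the range of the group than the limit of Dixon's test at the 95% level. Of 20 groups checked 5 passed that limit. For independent groups of normally distributed values chance alone passes about 1 in 20. The check used FPKM without the log, and the 10 genes share the same samples, so this rate is only a guide.

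The largest share was that of Cxcl13 on day 14, where replicate 2 at 159.87 FPKM lay apart from the other 3 samples by 0.986 of the range. Replicate 2 also stood apart for Cxcl16, at 51.88 FPKM (0.924 of the range), and for Ccr7, at 1.1 FPKM (0.85 of the range). In sham, replicate 4 stood apart for Cxcl13, at 1.99 FPKM (0.886 of the range), and replicate 3 lay below the others for Ccl19, at 0.36 FPKM (0.88 of the range). Replicate 4 is the sham sample with the most muscle transcripts, and their part in its Cxcl13 level was not tested.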

How the results depend on the processing

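Against sham, the calls of Cxcl13, Cxcl12, Cxcl16 and Cxcr6 on days 7 and 14 and of Ccl19 on day 7 held under every alternative in which the gene was tested at the adjusted p of 0.05. Of 298 fold changes under other settings, 291 kept their direction and side of the threshold, as did 422 of 448 with 1 sample left out.

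The number of genes higher on day 7 and on day 14 was 0 on both days at the stricter cut-offs and 3 on both days at a mean of at least 5 FPKM, where fewer of the genes were tested. With 1 sample left out it was 5 to 7 on day 7 and 4 to 6 on day 14, and the number lower on day 14 than on day 7 was 0 to 1. The 1 was Cxcl12 without TCI day 14 replicate 2, where 178 of 13945 genes tested were lower. Ccl19 on day 14 lost its call without the filter (adjusted p = 0.0555), with quantile normalization (0.143), with only 2 groups in the fit (0.0711) and with the replicate block (0.0527). The replicate block left 6 genes higher on day 7 and 4 on day 14 and changed no other call. Samples with the same number had a median correlation of deviations of 0.003 (18 pairs), and those with different numbers of -0.005.

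Reversals concerned differences that had not passed. With quantile normalization Cxcr6 on day 1 was -0.009, and over all 16 samples Ccr7 on day 1 was 0.01 and day 14 against day 7 was 0.067 for Cxcr4 and 0.048 for Cxcr6. With 1 sample left out, day 1 ranged from -0.043 to 0.203 for Cxcl16 and from -0.034 to 0.073 for Cxcr6, day 7 from -0.208 to 0.028 for Cxcr4, and day 14 from -0.347 to 0.132 for Ccl21. Day 14 against day 7 ranged from -0.681 to 0.581 for Cxcl13, -0.301 to 0.035 for Cxcr4, -0.226 to 0.28 for Cxcl16 and -0.508 to 0.147 for Cxcr6. The cause was not tested. The tables hold no depth, so levels near 0 have no counting error.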

Other observations

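TCI day 14 replicate 2 also stood out beyond the 10 genes. Among the day 14 samples it had the highest summed level of other chemokine ligands (657.1 FPKM, against 141.9 to 204.2 FPKM in the other 3), other chemokine receptors (35.9 against 12.8 to 20.7 FPKM), lymphoid tissue organizer genes (129.3 against 64.8 to 76.4 FPKM), NK cell markers (54.2 against 9.15 to 11.7 FPKM) and dendritic cell markers (61.2 against 37.7 to 53.8 FPKM). Most of the dendritic cell sum came from Fscn1, with means of 27.8 FPKM in sham and 34.0 FPKM on day 14. For the endothelial markers (78.9 against 69.0 to 87.8 FPKM) and the sensory neuron markers (8729 against 8582 to 10640 FPKM) replicate 2 lay between the others. It was the lowest for the Schwann cell markers (7164 against 7245 to 11050 FPKM) and the highest for the satellite glia markers (3804 against 3479 to 3614 FPKM).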
